A study of Mus musculus with 10 samples.

Results

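The genes described here are 10 genes used to recognise type 2 conventional dendritic cells (cDC2) in mouse spleen: Sirpa, Itgam, Esam, Cd209a, Mgl2, Clec10a, Clec12a, Cd4, Klf4 and Notch2. They were taken by name, out of 22180 genes on the arrays, and each was read from the probe set that carried its symbol alone and had the highest mean over the 10 arrays. All 10 were among the 13371 genes tested. Expression was measured in splenic CD11c+ dendritic cells isolated with magnetic beads, with 1 Affymetrix Mouse Gene 2.0 ST array for each of 10 samples. The C3ar1-/-C5ar1-/- mice, called DRKO below as in the labels' short name, lack the receptors for the complement fragments C3a and C5a, and the other mice were wild type (WT). The groups were CpG-injected DRKO (n = 3), unstimulated DRKO (n = 2), CpG-injected WT (n = 3) and unstimulated WT (n = 2). Mice of the CpG groups received 100 µg of CpG, a DNA oligonucleotide that activates Toll-like receptor 9, unstimulated mice received vehicle, and all cells were isolated 4 h later. The labels give no age, sex, strain background, pooling or cell type restriction of the deletions, and say that the samples came from mice but not that each came from a separate animal, so the p-values measure the spread between these samples.

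Conventional dendritic cells of the spleen fall into cDC1, which cross-present antigen to CD8+ T cells, and cDC2, which present antigen mainly to CD4+ T cells. Many splenic cDC2 need Notch2 signalling, fed by the ligand Dll1 on stromal cells, to become the Esam-high, CD4+ population next to the marginal zone. The rest are Esam-low and share genes such as Clec12a with monocytes. Klf4 is a zinc finger transcription factor needed for a subset of cDC2. The other members are surface proteins, so that the list joins 1 receptor and 1 transcription factor of the cDC2 programme with 8 markers of the resulting cells.

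All values are log2 intensities, on which a difference of 1 is a doubling. The isolated cells carried the conventional dendritic cell core: all 12 core markers on the arrays, among them Zbtb46, Flt3 and H2-Ab1, lay above the array's median in every array. The cells were a mixture. Of 18 cDC1 markers 17 to 18 lay above the array median, and all 19 splenic macrophage markers did so in every array. So did 12 to 14 of 15 B cell markers, 13 of 15 monocyte markers and 7 to 10 of 11 NK cell markers. This bar is low, as 13371 of the 22180 genes passed it in at least 2 arrays. The mean gene-centred level of the macrophage markers ran from -1.37 to 0.41 in DRKO arrays after CpG and from -1.2 to 0.25 in unstimulated DRKO arrays, against 0.13 to 0.33 in WT arrays after CpG and 0.35 to 0.55 in unstimulated WT arrays. The low ends belong to DRKO CpG replicate 3 and unstimulated DRKO replicate 2. These arrays, with WT CpG replicate 3, are also the arrays whose sample titles carry numbers of 20 and over, here called the second title series. Y-linked genes averaged 7.33 to 7.93 in 3 arrays, those of the first title series from DRKO mice, and 3.21 to 3.68 in the other 7, so that title series and Y-linked signal cannot be told apart among DRKO arrays. The targeted genes were lower in every DRKO array than in every WT array: C5ar1 was -1.53 ± 0.27 (SE; adjusted p = 0.0786, limma) and C3ar1 -0.63 ± 0.12 (adjusted p = 0.0888) in DRKO minus WT, averaged over stimulation. Where their probes lie relative to the deletions was not given, so these values do not check the labels.

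After CpG, the regulators Klf4 and Notch2 and the lectin Cd209a were the members called in either genotype, and all were lower. Klf4 and Cd209a passed the test (limma, adjusted p under 0.05 over all genes tested) in both genotypes and Notch2 in WT cells. No member was called between DRKO and WT cells, unstimulated or after CpG. The promoters of the 3 members that passed are shown because these members differ widely in base composition at the gene start. They run from 250 bases before to 50 bases after the start, 5′ to 3′ on the gene's own strand, are from RefSeq (GRCm38.p6), and have each CG dinucleotide in capitals:
Klf4 promoter, chr4:55532426-55532725, minus strand: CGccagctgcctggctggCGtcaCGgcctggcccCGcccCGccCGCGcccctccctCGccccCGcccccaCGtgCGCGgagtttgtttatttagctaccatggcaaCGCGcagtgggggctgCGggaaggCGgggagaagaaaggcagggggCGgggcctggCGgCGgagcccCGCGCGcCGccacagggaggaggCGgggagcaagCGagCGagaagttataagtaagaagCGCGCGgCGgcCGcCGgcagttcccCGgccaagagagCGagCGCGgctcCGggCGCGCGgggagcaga
Notch2 promoter, chr3:98013288-98013587, plus strand: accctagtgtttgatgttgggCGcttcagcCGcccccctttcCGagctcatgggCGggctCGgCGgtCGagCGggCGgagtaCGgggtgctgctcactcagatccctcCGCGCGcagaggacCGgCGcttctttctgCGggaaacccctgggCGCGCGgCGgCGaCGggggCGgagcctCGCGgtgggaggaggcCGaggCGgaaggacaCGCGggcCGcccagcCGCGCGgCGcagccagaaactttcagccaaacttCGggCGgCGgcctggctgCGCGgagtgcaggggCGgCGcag
Cd209a promoter, chr8:3748935-3749234, minus strand: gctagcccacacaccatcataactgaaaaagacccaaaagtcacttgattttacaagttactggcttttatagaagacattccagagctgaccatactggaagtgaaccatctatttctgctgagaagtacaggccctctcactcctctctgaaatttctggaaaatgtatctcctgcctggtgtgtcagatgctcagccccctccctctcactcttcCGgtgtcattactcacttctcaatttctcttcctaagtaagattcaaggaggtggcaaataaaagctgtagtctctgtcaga
The CG dinucleotide counted here is a feature of the genome sequence and is not the injected oligonucleotide. The Klf4 promoter held 40 CG and the Notch2 promoter 41, with 74.3% and 73.0% G or C. More than 96% of the 32851 promoters in the table held fewer, namely 96.1% for Klf4 and 96.5% for Notch2. The Cd209a promoter held 1 CG and 44.0% G or C, and 5.4% of promoters held fewer. The median over all promoters was 7 CG and 52.7% G or C. Among the other members in the table, Clec12a held 3, Itgam 6 and Mgl2 8.

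Klf4 fell after CpG in both genotypes, by similar amounts. It measured 9.05, 8.84 and 8.71 in DRKO cells after CpG, against 9.88 and 9.64 in unstimulated DRKO cells. It measured 8.93, 8.93 and 8.64 in WT cells after CpG, against 9.65 and 9.69 in unstimulated WT cells. In each genotype every CpG array lay below every unstimulated array. The log2 change was -0.89 ± 0.15 in DRKO cells (SE; limma, adjusted p = 0.00489), a 1.86-fold lower level. In WT cells it was -0.83 ± 0.15 (limma, adjusted p = 0.00274), a 1.78-fold lower level. The call held under all 20 alternatives in each genotype, over which the change ran from -1.06 to -0.78 in DRKO cells and from -0.99 to -0.74 in WT cells. The CpG change in DRKO minus that in WT cells was -0.06, with a 95% interval from -0.51 to 0.40 (limma, adjusted p = 0.986). The DRKO and WT cells differed by 0.03 after CpG, with a 95% interval from -0.26 to 0.32 (limma, adjusted p = 0.948).

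Notch2, the receptor through which splenic cDC2 receive the Dll1 signal, was lower after CpG by a smaller amount. It measured 10.68, 10.58 and 10.47 in DRKO cells after CpG, against 10.90 and 10.94 in unstimulated DRKO cells. It measured 10.36, 10.37 and 10.70 in WT cells after CpG, against 10.77 and 11.12 in unstimulated WT cells. The groups did not overlap in either genotype, although the highest WT CpG array came within 0.1 of the lower unstimulated one. The log2 change was -0.35 ± 0.15 in DRKO cells, which did not pass (limma, adjusted p = 0.181), and -0.47 ± 0.15 in WT cells, which did (limma, adjusted p = 0.0468). The WT call was near the threshold and held in 11 of 20 alternatives. Without unstimulated WT replicate 2 the change was -0.29 (limma, adjusted p = 0.350). It was also lost without WT CpG replicate 1 (adjusted p = 0.135, limma) or 2 (adjusted p = 0.130), and without any one of the DRKO arrays other than CpG replicate 3 (adjusted p from 0.0534 to 0.0620). The CpG change of Notch2 in DRKO minus that in WT cells was 0.12, with a 95% interval from -0.34 to 0.59 (limma, adjusted p = 0.970).

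Cd209a, which encodes the C-type lectin DC-SIGN homologue CD209a found on cDC2 and monocyte-derived cells, had the largest CpG change of the members in each genotype. It measured 8.05, 9.16 and 9.30 in DRKO cells after CpG, against 10.20 and 9.90 in unstimulated DRKO cells. It measured 7.93, 7.6 and 7.81 in WT cells after CpG, against 9.71 and 9.84 in unstimulated WT cells. The CpG arrays lay below the unstimulated ones in both genotypes, and every DRKO array lay above every WT array of the same stimulation. DRKO CpG replicate 1 stood near the WT CpG arrays, and the other DRKO CpG arrays were more than 1 unit above it. The log2 change after CpG was -1.21 ± 0.30 in DRKO cells (SE; limma, adjusted p = 0.0319), a 2.31-fold lower level. In WT cells it was -2.0 ± 0.30 (limma, adjusted p = 0.00125), a 4.00-fold lower level. The DRKO call was lost without either unstimulated DRKO array, at -1.06 without replicate 1 (limma, adjusted p = 0.153) and -1.36 without replicate 2 (adjusted p = 0.0997). It was also lost, by a narrow margin, without WT CpG replicate 1 or either unstimulated WT array (adjusted p from 0.0502 to 0.0513, limma), where the change itself stayed at -1.21.

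The Cd209a result rests on the probe set with the higher mean. A second probe set with this symbol alone, whose mean over the arrays was 7.39 against 8.95 for the first, measured 7.31, 7.43 and 7.59 in DRKO cells after CpG, against 7.62 and 7.30 in unstimulated DRKO cells. It measured 7.27, 7.31 and 7.02 in WT cells after CpG, against 7.24 and 7.83 in unstimulated WT cells. These groups overlapped in both genotypes. With it, the log2 change after CpG was -0.02 in DRKO cells (limma, adjusted p = 0.970) and -0.33 in WT cells (limma, adjusted p = 0.258). The 2 probe sets of Cd209a disagree, and which transcripts each one reads was not tested. The tested relatives Cd209b, Cd209c and Cd209d, lectins of the same cluster of genes, did not pass in either genotype. Their log2 changes were -0.29, 0.24 and 0.22 in DRKO cells and -0.06, 0.11 and -0.35 in WT cells.

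**Figure D1:**
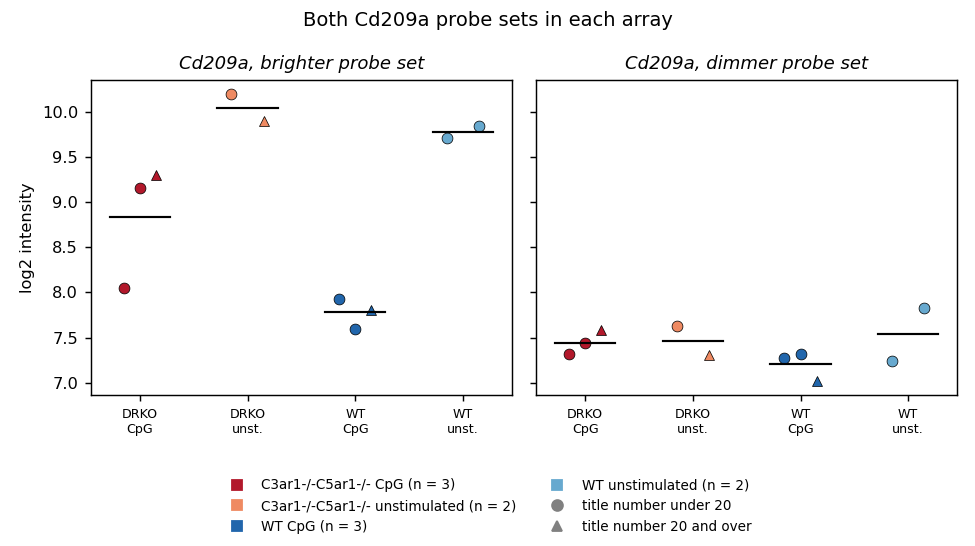
Log2 intensity of the 2 Cd209a probe sets by array and group, with points for arrays and lines for group means. The brighter probe set was lower in every CpG array than in every unstimulated array of the same genotype, and the dimmer one overlapped between groups.

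Among the 10 members, 2 were called lower after CpG in DRKO cells and 3 in WT cells, and none was called higher. Over all genes tested, 5.76% were called lower in DRKO cells and 13.3% in WT cells. The members' median log2 change was -0.29 in DRKO cells, against -0.04 over all genes, with 9 of 10 members negative. In WT cells the median was -0.49, against -0.04 over all genes, with 10 of 10 negative. Every CpG array lay below every unstimulated array for 3 members in DRKO cells, Cd209a, Klf4 and Notch2, and this held for 22.5% of all genes. It did so for 7 members in WT cells, Sirpa, Itgam, Cd209a, Mgl2, Cd4, Klf4 and Notch2, and this held for 31.2% of all genes. In these bulk samples, fewer cDC2 among the isolated cells and less RNA of a gene per cell cannot be told apart. Some markers of other cells were also called after CpG. Of 14 tested B cell markers 4 fell in DRKO and 6 in WT cells. Of 13 monocyte markers 2 fell in DRKO cells, and 4 fell and 1 rose in WT cells. Of 19 neutrophil markers 2 rose in each genotype, and of 19 macrophage markers 1 rose in each. Of 10 T cell markers 1 rose and 1 fell in each, and of 10 NK cell markers 1 fell in each. Over all 13371 genes tested, 1377 were called in DRKO cells, 770 of them lower, and 2885 in WT cells, 1783 of them lower. Counts of 1 among 10 or 19 markers are near these shares over all genes. The part of the B cell, monocyte, T cell and NK cell markers in the members' values was not tested.

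**Figure D2:**
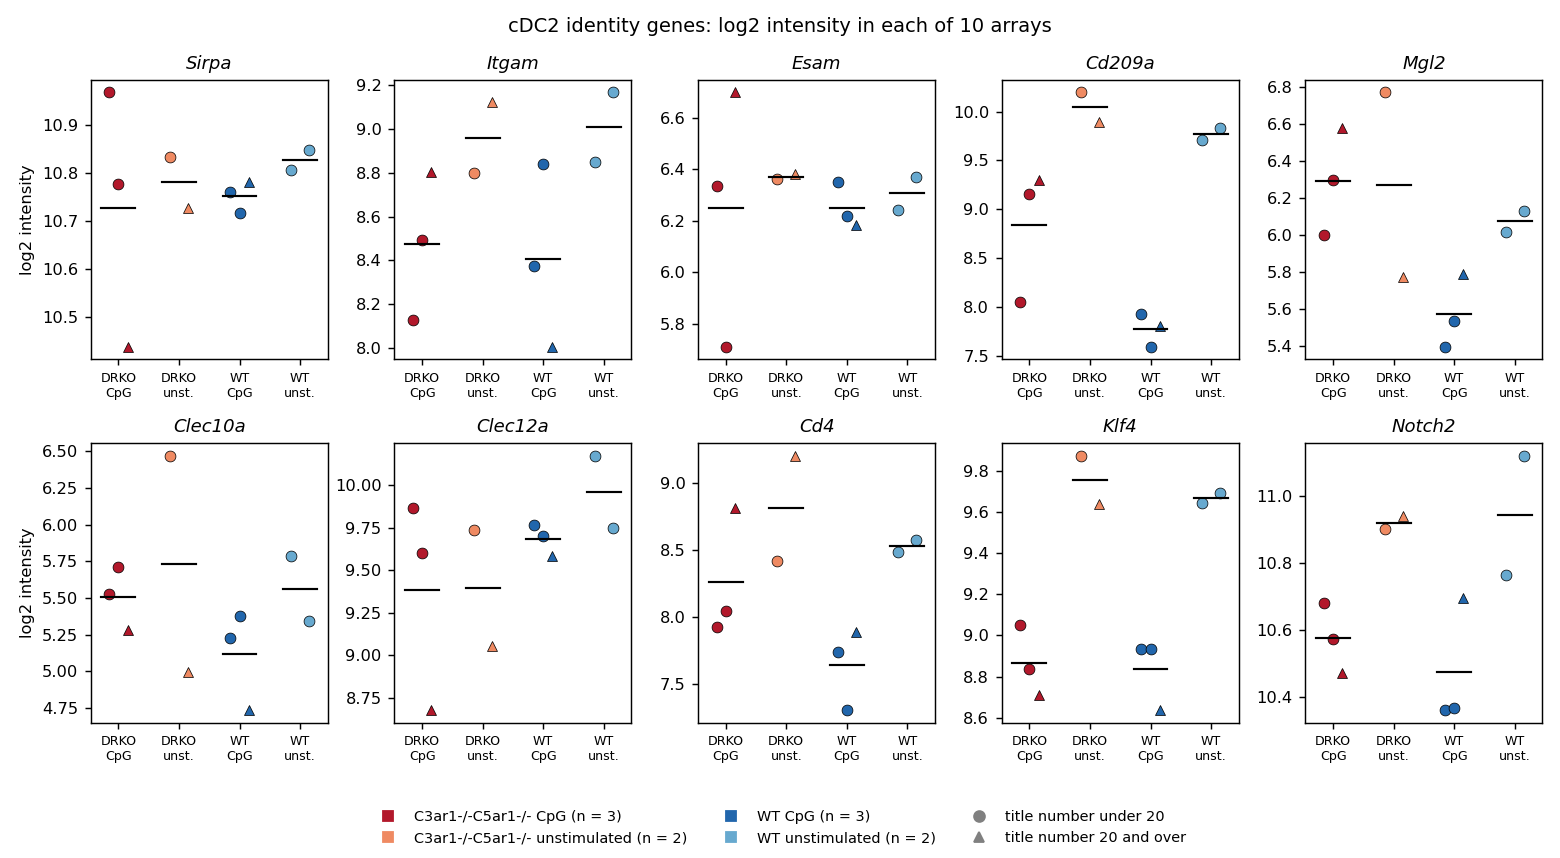
Log2 intensity of each member in each array, by group, with lines for group means and triangles for the second title series. Klf4, Cd209a and Notch2 lay lower in every CpG array than in every unstimulated array of the same genotype, while Sirpa stayed between 10.44 and 10.97 throughout.

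Cd4, the co-receptor that marks most Esam-high cDC2, had negative CpG changes that did not pass. It measured 7.93, 8.05 and 8.81 in DRKO cells after CpG, against 8.42 and 9.21 in unstimulated DRKO cells. It measured 7.74, 7.31 and 7.89 in WT cells after CpG, against 8.49 and 8.58 in unstimulated WT cells. The WT groups did not overlap and the DRKO groups did. The log2 change was -0.55 ± 0.29 in DRKO cells (limma, adjusted p = 0.280) and -0.89 ± 0.29 in WT cells (limma, adjusted p = 0.0538), so that neither passed. The WT value passed in 7 of 20 alternatives, with the title series as a block at -1.10 (limma, adjusted p = 0.000863) and without DRKO CpG replicate 3 at -0.89 (adjusted p = 0.0173). Cd4 is also a T cell gene. The T cell receptor genes Cd3d, Cd3e and Cd3g ran from 5.11 to 6.39, from 5.22 to 6.28 and from 4.88 to 7.04 over the arrays, each highest in unstimulated DRKO replicate 1. Of the 10 T cell markers tested, Il7r was called higher and Cd5 lower after CpG in each genotype. Cd5, a surface protein of T cells and some B cells, was -1.16 in DRKO and -1.24 in WT cells, and like Cd4 it was highest in unstimulated DRKO replicate 2, at 8.35. In that array Cd3d and Cd3e were at their lowest, 5.11 and 5.22, and Cd3g was 5.31. The mean level of the T cell markers there, -0.20, was the lowest of the 10 arrays. The part of T cells in the Cd4 values was not tested. The mean level of the 13 T cell markers on the arrays ran from -0.16 to 0.17 in DRKO arrays after CpG and from -0.20 to 0.26 in unstimulated DRKO arrays, against -0.19 to 0.07 in WT arrays after CpG and -0.10 to -0.02 in unstimulated WT arrays.

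Itgam, the CD11b integrin chain by which splenic cDC2 are usually gated, had negative changes after CpG that did not pass. Its log2 change was -0.49 ± 0.25 in DRKO cells (limma, adjusted p = 0.267) and -0.60 ± 0.25 in WT cells (limma, adjusted p = 0.123). The arrays ran from 8.13 to 8.80 in DRKO cells after CpG, against 8.80 to 9.12 in unstimulated DRKO cells, and from 8.01 to 8.84 in WT cells after CpG, against 8.85 to 9.17 in unstimulated WT cells. The WT value passed without WT CpG replicate 2, at -0.82 (limma, adjusted p = 0.0417). Itgam is also expressed by macrophages, monocytes and neutrophils, and with the level of the macrophage markers as a covariate the WT change was -0.67 (limma, adjusted p = 0.0372). Neutrophil marker levels, averaged over 21 genes, ran from -1.2 to 0.21 in DRKO arrays after CpG and from -1.37 to -0.93 in unstimulated DRKO arrays, against 0.02 to 1.65 in WT arrays after CpG and 0.02 to 0.45 in unstimulated WT arrays. With that level as a covariate, Cd209a no longer passed in DRKO cells (-0.99; limma, adjusted p = 0.0863) and Notch2 no longer passed in WT cells, where its change was -0.44 against -0.47 without the covariate (limma, adjusted p = 0.103), while Klf4 passed in both.

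Sirpa, Esam and Clec12a had estimates between -0.28 and -0.01 after CpG and did not pass. Sirpa encodes the inhibitory receptor SIRPα, which binds CD47 and separates cDC2 from cDC1. Its log2 change was -0.05 in DRKO cells (95% interval -0.38 to 0.27; limma, adjusted p = 0.872) and -0.08 in WT cells (-0.40 to 0.25; adjusted p = 0.784). Esam, an adhesion molecule that names the Notch2-dependent subset, changed by -0.12 in DRKO cells (95% interval -0.63 to 0.38; limma, adjusted p = 0.800) and by -0.06 in WT cells (-0.56 to 0.44; adjusted p = 0.899). The intervals of Sirpa were narrower than those of Esam. Clec12a, an inhibitory lectin of the Esam-low subset and of monocytes, changed by -0.01 in DRKO cells (95% interval -0.71 to 0.68; limma, adjusted p = 0.989) and by -0.28 in WT cells (-0.97 to 0.41; adjusted p = 0.599).

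Mgl2 and Clec10a encode a pair of closely related galactose-type lectins that bind glycans, and both were dim on these arrays. Mgl2 was above the array median in 9 of 10 arrays and Clec10a in 3 of 10. Mgl2 measured 6.0, 6.30 and 6.58 in DRKO cells after CpG, against 6.77 and 5.77 in unstimulated DRKO cells. It measured 5.40, 5.54 and 5.79 in WT cells after CpG, against 6.02 and 6.13 in unstimulated WT cells. The WT groups did not overlap, and the unstimulated DRKO arrays lay on both sides of the CpG arrays. The log2 change of Mgl2 was 0.02 ± 0.26 in DRKO cells (limma, adjusted p = 0.972) and -0.50 ± 0.26 in WT cells (limma, adjusted p = 0.222). Clec10a ran from 5.28 to 5.71 in DRKO cells after CpG, against 4.99 to 6.47 in unstimulated DRKO cells. In WT cells it ran from 4.74 to 5.38 after CpG, against 5.35 to 5.78 in unstimulated cells. The log2 change of Clec10a was -0.22 ± 0.36 in DRKO cells (limma, adjusted p = 0.769) and -0.45 ± 0.36 in WT cells (limma, adjusted p = 0.442). As these genes have near copies of one another, whether their probe sets share signal was not tested.

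**Figure D3:**
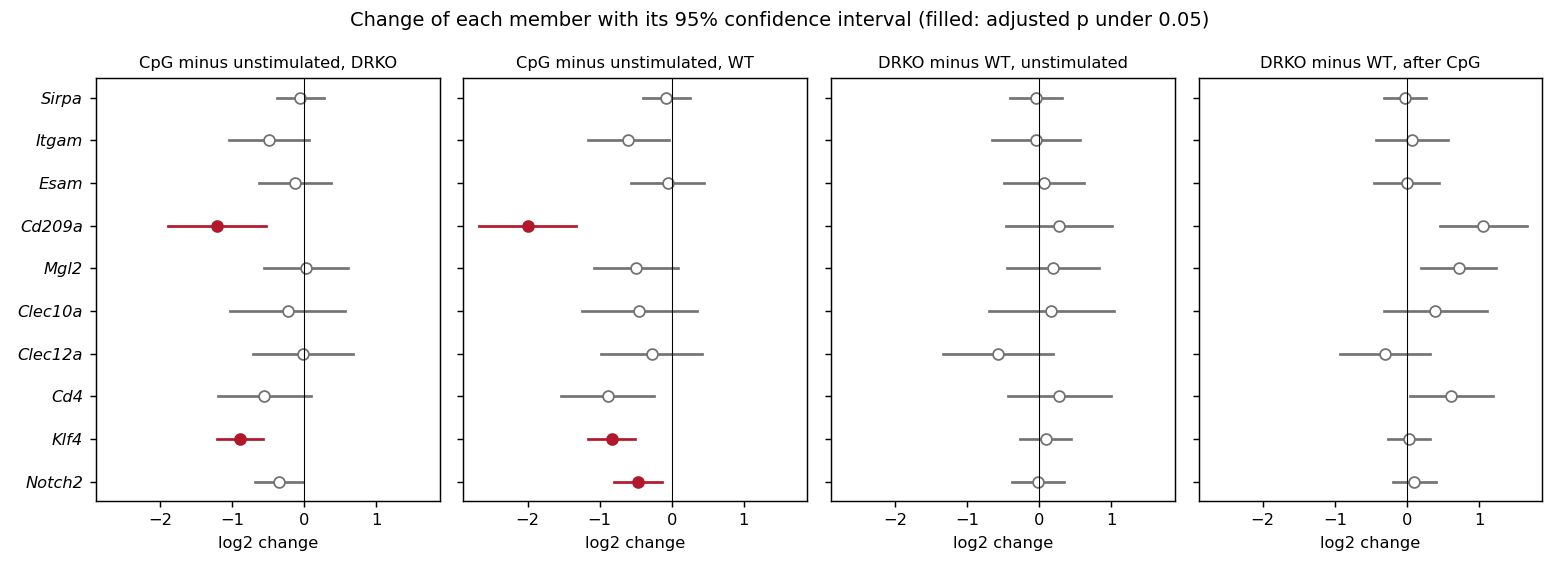
Log2 change of each member with its 95% interval from the limma fit, in DRKO and WT cells after CpG and for DRKO minus WT in unstimulated cells and after CpG. Cd209a and Klf4 passed after CpG in both genotypes and Notch2 in WT, and no member passed between genotypes.

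Between genotypes, no member passed in any comparison. In unstimulated cells 0 of 10 were called, against 0.00748% of all genes, and 0 had an unadjusted p under 0.05 (limma), against 4.63% of all genes. After CpG 0 of 10 were called, against 0.12% of all genes, and 3 had an unadjusted p under 0.05, against 14.3% of all genes. For the difference of the CpG changes between genotypes 0 of 10 were called, against 0.00748% of all genes, and 0 had an unadjusted p under 0.05, against 5.65% of all genes. Averaged over stimulation 0 of 10 were called, against 0.0972% of all genes, and 2 had an unadjusted p under 0.05, against 11.6% of all genes. Since few genes passed at all, the absence of called members is near what the whole table gives.

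The 3 members with an unadjusted p under 0.05 after CpG were Cd209a, Mgl2 and Cd4, and for each of them every DRKO CpG array lay above every WT CpG array, as for 11.6% of all genes. The per-array values are those given above. Cd209a was 1.06 ± 0.27 higher in DRKO than in WT cells after CpG (95% interval 0.46 to 1.66; limma, adjusted p = 0.113), Mgl2 0.72 ± 0.24 (0.20 to 1.24; adjusted p = 0.200) and Cd4 0.62 ± 0.26 (0.04 to 1.2; adjusted p = 0.318). None of them passed. Within the first title series the DRKO minus WT values after CpG were 0.84 for Cd209a, 0.68 for Mgl2 and 0.46 for Cd4, and in the second, with 1 array per genotype, 1.5, 0.79 and 0.92. The direction was the same in both series for these members, whereas Itgam was -0.30 in the first and 0.80 in the second. In the first series Y-linked signal was high in every DRKO array and in no WT array, so there it cannot be told apart from genotype.

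The Cd209a difference was called with 1 array left out and with 1 covariate, and the Cd4 difference with that covariate. Without DRKO CpG replicate 1, the array nearest to the WT ones, the difference after CpG was 1.45 (limma, adjusted p = 0.00596). With the Y-linked level as a covariate it was 1.23 (adjusted p = 0.0444), and with the dimmer probe set 0.24 (adjusted p = 0.566). With the neutrophil covariate it was 0.68 (limma, adjusted p = 0.557), and Cd4 was then -0.03 (adjusted p = 0.984). After CpG the neutrophil level was -1.2 to 0.21 in DRKO and 0.02 to 1.65 in WT arrays, so covariate and genotype partly overlap. The part of neutrophils in the Cd209a and Cd4 differences was not tested beyond this covariate. With the Y-linked covariate Cd4 differed by 1.11 after CpG (limma, adjusted p = 0.00575) and by 0.91 averaged over stimulation (adjusted p = 0.00406), and passed in both. The Y-linked level was high in 3 DRKO arrays and in no WT array. A fit with it therefore sets mainly DRKO CpG replicate 3 and unstimulated DRKO replicate 2 against the WT arrays. The difference of the CpG changes between genotypes was 0.79 ± 0.43 for Cd209a (95% interval -0.16 to 1.74; limma, adjusted p = 0.902), 0.52 ± 0.37 for Mgl2 (adjusted p = 0.932) and 0.34 ± 0.41 for Cd4 (adjusted p = 0.959). A smaller fall of these members in DRKO cells was therefore not shown by a test.

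In unstimulated cells, Cd209a was the one member higher in both DRKO arrays than in both WT arrays, by 0.27 ± 0.33, and Clec12a the one lower in both, by -0.57 ± 0.34 (limma, adjusted p = 0.992 for Clec12a). With 2 arrays against 2, 34.2% of all genes had groups that did not overlap in one direction or the other. The remaining members differed by -0.05 to 0.28.

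Clec12a and Cd4 divided the DRKO arrays. Clec12a measured 9.87, 9.60 and 8.68 in DRKO cells after CpG and 9.73 and 9.05 in unstimulated DRKO cells, against 9.76, 9.70 and 9.58 in WT cells after CpG and 10.17 and 9.75 in unstimulated WT cells. DRKO CpG replicate 3 and unstimulated DRKO replicate 2 were thus the 2 lowest of the 10 arrays for Clec12a, and for Cd4 the same arrays, at 8.81 and 9.21, were the 2 highest. The macrophage growth factor receptor Csf1r, which macrophages and some cDC2 express, was 9.71 and 9.78 in these arrays and 10.89 to 11.79 in the other 8. Dtx1, a Notch target gene used to mark Esam-high cDC2, was 9.33 and 9.46 in them and 8.49 to 8.82 in the other 8. Other Notch target genes were not high there. Hey1, at 5.91 and 5.84, was lowest in these 2 arrays, and Hes1, at 7.54 and 8.27, lay within 7.08 to 8.59 of the other 8. The mean gene-centred level of the 33 Notch pathway genes on the arrays was -0.04 and -0.07 in them, the lowest of the 10 arrays. The macrophage markers were lowest in the same arrays, and their part in the Clec12a and Cd4 values was not tested beyond a covariate. Between genotypes Cd4 did not pass with the macrophage level as a covariate, and its values there are not given here. With the macrophage level as a covariate, Clec12a differed between DRKO and WT cells by -0.06 in unstimulated cells and -0.08 after CpG, and with the title series as a block by -0.26 and -0.30, none of which passed (limma). With the Y-linked level as a covariate the differences passed, at -1.05 in unstimulated cells (limma, adjusted p = 0.00980) and -0.85 after CpG (adjusted p = 0.0142). That covariate leaves the comparison resting mainly on the same 2 DRKO arrays, the lowest for Clec12a.

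**Figure D4:**
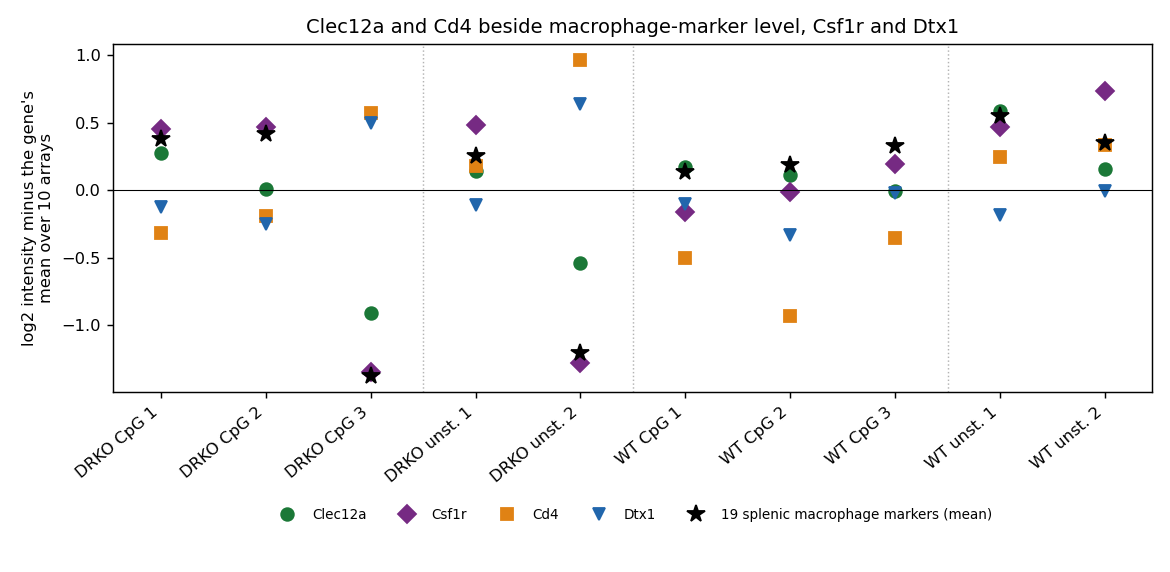
Log2 intensity of Clec12a, Cd4, Csf1r and Dtx1 in each array, minus the gene's mean over the 10 arrays, with the mean of 19 macrophage markers as stars. DRKO CpG replicate 3 and unstimulated DRKO replicate 2 were low for Clec12a and Csf1r and high for Cd4 and Dtx1. The mean level of the Notch pathway genes, not drawn here, was lowest in these arrays.

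Other cDC2 genes were read from lists that do not hold the members. Beside the counts of these lists and those below, 1377 of all 13371 genes were called in DRKO cells after CpG, 770 of them lower. In WT cells 2885 were called, 1783 of them lower. Of 13 tested transcription and signalling regulators, 5 rose and 1 fell in DRKO cells after CpG, and 5 rose and none fell in WT cells, with a list median of 0.27 in DRKO and 0.23 in WT. Prdm1, the repressor Blimp-1, rose by 1.61 ± 0.19 in DRKO and 1.69 ± 0.19 in WT cells. The NF-κB genes Nfkb2, Relb and Rela rose by 0.65, 0.49 and 0.61 in DRKO and by 0.84, 0.61 and 0.53 in WT cells, and Id2, an inhibitor of helix-loop-helix factors, by 0.78 and 0.48. Irf4, a factor needed for cDC2 migration and function, fell in DRKO cells by 0.82 on the log2 scale (SE 0.21; limma, adjusted p = 0.0309) and was -0.12 in WT cells (adjusted p = 0.758). The difference between the genotypes' Irf4 changes did not pass (-0.71 ± 0.29; limma, adjusted p = 0.851). Rbpj, the DNA-binding partner of the Notch intracellular domain, was -0.04 in DRKO and -0.06 in WT cells and did not pass. The called regulators of this list all rose, apart from Irf4 in DRKO cells. The members Klf4, in both genotypes, and Notch2, in WT cells, were called lower.

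Of 13 further surface and effector genes of Esam-high cDC2, 1 rose and 2 fell in DRKO cells, and 4 rose and 2 fell in WT cells, with medians of 0.05 and 0.43. Cd80, a co-stimulatory ligand, rose by 0.75 in DRKO and 0.92 in WT cells, and the chemokine receptor Ccr6 was -0.73 and -0.83, called in both. Tmem176a, Tmem176b and Lta rose by 0.68, 0.59 and 0.57 in WT cells and were 0.27, 0.22 and 0.05 in DRKO cells without passing. Cd7 was called in WT cells alone, at -1.02 against -0.76 in DRKO cells. Ltb was called in DRKO cells alone, at -0.87 against -0.60 in WT cells. Of 15 further genes of the Esam-low subset, 1 rose and 3 fell in DRKO cells and 2 rose and 3 fell in WT cells. The fractalkine receptor Cx3cr1 was -0.63 in DRKO and -1.09 in WT cells, the β-glucan receptor Clec7a -0.96 and -1.11, and the chemokine receptor Ccr2 -0.67 and -0.68, all called. The lectin Clec4a1 rose by 0.86 in DRKO and 0.98 in WT cells. Neither subset's list moved in one direction.

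Of 31 tested genes of the Notch pathway, 3 rose and 2 fell in DRKO cells after CpG, and 4 rose and 7 fell in WT cells, with medians of 0.02 and -0.05. The ligand Dll4 measured 7.69, 6.96 and 7.37 in DRKO cells after CpG, against 5.99 and 5.59 in unstimulated DRKO cells, and 8.61, 9.50 and 8.20 in WT cells after CpG, against 6.51 and 5.49 in unstimulated WT cells. It was higher in every CpG array than in every unstimulated array of its genotype, and lower in every DRKO CpG array than in every WT CpG array. Dll4 held the list's extreme value in each of these comparisons, and the shares of all genes with such separation are not given here. Dll4 rose by 1.55 ± 0.38 in DRKO cells (limma, adjusted p = 0.0304) and by 2.77 ± 0.38 in WT cells (limma, adjusted p = 0.000764), and its difference between genotypes after CpG, -1.43 ± 0.34, did not pass (adjusted p = 0.0968). Notch1, a receptor like Notch2, rose by 1.0 in DRKO and 0.90 in WT cells, opposite in sign to Notch2. Dtx2, a regulator of Notch, rose by 0.69 in DRKO and 1.16 in WT cells. Mfng, a glycosyltransferase that modifies Notch receptors, fell by 0.79 in DRKO and by 1.41 in WT cells on the log2 scale, and Notch4 by 0.66 and 0.73. The target gene Hes1 was -0.61 in DRKO cells (limma, adjusted p = 0.105) and fell by 0.95 on the log2 scale in WT cells (limma, adjusted p = 0.0103).

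**Figure D5:**
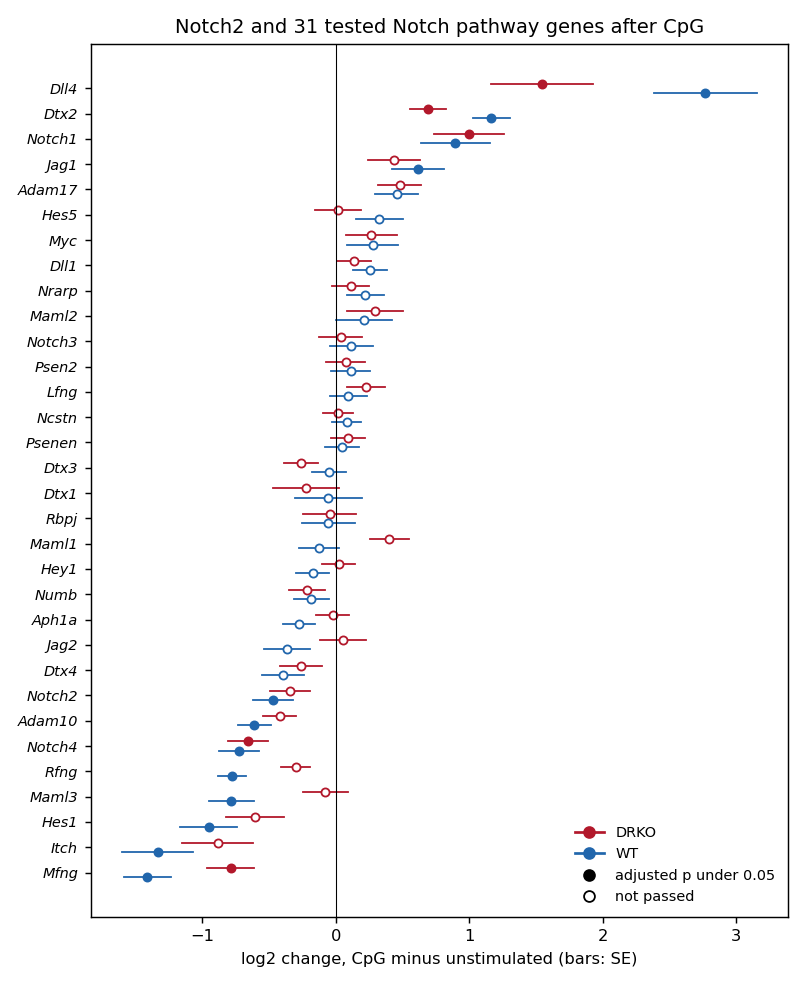
Log2 change after CpG of the tested Notch pathway genes, with Notch2 among them, in DRKO and WT cells, filled where the adjusted p was under 0.05, with bars of 1 SE from limma. Dll4, Notch1 and Dtx2 rose in both genotypes, and Mfng and Notch4 fell in both.

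Of 18 tested ligands, partners and relatives of the members, 1 rose and 2 fell in DRKO cells, and 2 rose and 5 fell in WT cells. Icam1, an adhesion ligand of the integrin that Itgam forms, rose by 1.23 in DRKO and 1.28 in WT cells. Itgb2, the β chain that pairs with Itgam, was -0.11 in DRKO cells without passing and fell by 0.49 on the log2 scale in WT cells. Cd47, the ligand of SIRPα, was 0.31 in DRKO cells without passing and rose by 0.51 in WT cells. Ptpn6, the phosphatase that SIRPα recruits, fell by 0.45 on the log2 scale in DRKO cells and was -0.26 in WT cells without passing. Ptpn11, another phosphatase that binds SIRPα, was 0.12 in DRKO and -0.08 in WT cells and did not pass.

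Markers of other dendritic cells were read in the same way. Of 18 tested cDC1 markers, 2 rose and 7 fell in DRKO cells after CpG, and 3 rose and 12 fell in WT cells, with medians of -0.47 and -1.01. Xcr1, the chemokine receptor that defines cDC1, was -1.71 in DRKO and -2.54 in WT cells, and Tlr3 -2.17 and -2.54, all called. The highest value of the list was that of Ly75, 1.87 in DRKO and 2.28 in WT cells. Itgax, the CD11c gene by whose protein the cells were isolated, was -0.44 in DRKO cells (limma, adjusted p = 0.0915) and -0.76 in WT cells (adjusted p = 0.00494). Plasmacytoid markers gave no call in DRKO cells and 1 in each direction in WT cells among 12 tested. The members and the cDC1 markers were not set against each other in a test.

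For each member that passed, the 2 other genes whose gene-centred values over the 10 arrays differed least from it were named by root-mean-square difference. Cd209a was most like Srgap3 (difference 0.13, against a spread of 0.95 for Cd209a itself) and Plcb2 (0.18). Their log2 changes after CpG were -1.22 and -1.07 in DRKO cells and -1.96 and -1.93 in WT cells. Klf4 was most like Calhm2 and Nr4a2, with differences of 0.10 and 0.11 against its own spread of 0.44. Notch2 was most like Anxa6 and Oxsm, each at 0.08 against its own spread of 0.24. None of these genes is a member, and the 10 arrays that the likeness rests on are those of the tests.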

How the data were processed

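The deposited values are on a log2 scale, 1 value for each probe set and array, and the authors computed them by RMA (Affymetrix Expression Console), according to the submitters' processing notes; RMA corrects background, normalizes arrays and summarises probes. Versions and genome build: not given in the sources used here. The protocols name different labelling kits without assigning samples, so title numbers stood in for batches. Of 41345 probe sets, 23521 had 1 symbol, 1814 several and 16010 none; 23328 matched a RefSeq gene (GRCm38.p6, for names). Array medians were 5.50 to 5.56, and no arrays were identical. The number of arrays limits the precision.

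Genes above the array median in at least 2 of 10 arrays were tested with limma 3.58.1 (R 4.3.3), using 4 group means, eBayes and Benjamini-Hochberg adjustment over 13371 genes in each of 6 contrasts, with 6 residual degrees of freedom; the script was tested on simulated data. The 10 alternatives besides leaving out each array were no or a stricter filter (5 arrays), quantile normalization, the lowest-mean probe set, trend and robust eBayes, array weights, the title series as a block, and the macrophage, neutrophil or Y-linked level as a covariate. All members were named, with Irf4, Relb and Rbpj. From other lists some of the called genes were named, which were not always those of smallest p. Values of other genes shown per array, and Csf1r, Dtx1, Hes1, Ptpn11, the Cd3 genes and the relatives of Cd209a, were chosen after values were seen. The members and lists were chosen with earlier results of these data known.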

Additional observations from a re-analysis of the deposited data

How the results depend on the processing

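The numbers of members called varied little except after CpG in WT cells and between genotypes. After CpG in DRKO cells 2 members were called, 1 to 2 when an array was left out, and 1 with the neutrophil covariate or the lowest-mean probe sets. In WT cells 3 were called, 2 to 4 when an array was left out and 5 with the macrophage covariate. Between genotypes 0 were called, but with the Y-linked covariate 1 in unstimulated cells, 3 after CpG and 2 averaged over stimulation. With that covariate the comparison rests mainly on the 2 DRKO arrays of the second title series. Leaving out an array gave 0 in unstimulated cells, and 0 to 1 after CpG and averaged, 1 being Cd209a without DRKO CpG replicate 1. The difference of the CpG changes gave 0 throughout. No called member reversed. Over all genes, calls after CpG in DRKO cells numbered 1377, and 421 without unstimulated DRKO replicate 2; in WT cells 2885, and 1276 without unstimulated WT replicate 2. Calls between genotypes after CpG numbered 16, with 2 to 270 when an array was left out and 800 with the Y-linked covariate; averaged, 13, with 1 to 72 and 913; unstimulated, 1, with 1 to 2 and 407. The cause was not tested. No paired analysis was possible because the labels carry no replicate numbers shared between groups. With 2 or 3 arrays a group, and Mgl2 and Clec10a near the array median, small changes were not detectable.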
